A study of Mus musculus with 6 samples.

Results

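The *Hox* genes of the 4 clusters were followed in RNA from lungs of mouse embryos at 12.5 *dpc* (days post coitus). A locus of the deposited gene table was taken when one of its gene symbols was *Hoxa*, *Hoxb*, *Hoxc* or *Hoxd* with a number. This gave 40 loci, holding 39 *Hox* genes, of 24402 loci in all. Cluster a had 11 genes in 10 loci, cluster b 10 genes in 11 loci, cluster c 9 genes in 10 loci and cluster d 9 genes in 9 loci. *Hoxa5* and *Hoxa6* shared 1 locus, whereas *Hoxb5* and *Hoxc4* each had 2 loci. Control lungs came from wild-type littermates (3 libraries) and *Yap* mutant lungs from embryos with the genotype *Yap*-flox/flox; *Shh*-Cre/+ (3 libraries), all labelled C57BL/6. Cre recombinase, made from the *Shh* locus, deletes *Yap* in the lung epithelium, and the mesenchyme around it keeps *Yap*. The *Shh*-Cre allele also takes the place of 1 working copy of *Shh*, which the wild-type controls do not share. For each genotype the authors' table pools the libraries into 1 value, so the values below are given without a spread between libraries, a depth or a test.

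*Hox* genes encode homeodomain transcription factors that give cells along the head-to-tail axis their regional identity. They stand in clusters in which the order of the genes follows the order of their domains along the body, with low paralogue numbers anterior and high numbers posterior. Genes with the same number in different clusters are paralogues and often share functions. In the embryonic lung, *Hox* genes are known mainly from the mesenchyme, and *Hoxa5* is needed for normal development of the trachea and lung.

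The targeted gene, *Yap1*, was at 76.1 FPKM (fragments scaled by transcript length and by library size) in controls and 65.6 FPKM in *Yap* mutants. These were whole lungs, in which mesenchyme contributes *Yap1* RNA in both genotypes. *Shh* itself was at 15.6 FPKM in controls and 2.31 FPKM in *Yap* mutants. In RNA from a whole organ, fewer cells of a type and less RNA per cell cannot be told apart. The labelled tissue held lung markers in both genotypes, with *Nkx2-1* at 61.9 and 35.9 FPKM and the mesenchymal gene *Tbx4* at 54.3 and 59.2 FPKM in control and *Yap* mutant lungs. Markers of other tissues differed too. The 9 heart muscle markers summed to 120.2 FPKM in controls and 881.3 FPKM in *Yap* mutants. Embryo sex differed between the pools as well, as read from the 4 Y-linked markers. Each stood at 0.0163 FPKM or less in controls and between 4.61 and 16.5 FPKM in *Yap* mutants. Sex and genotype therefore cannot be told apart in these values. The part of these differences in the *Hox* values was not tested.

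Promoter windows from 250 bases before to 50 bases after the transcription start were available from RefSeq (GRCm38.p6) for 22 of the 39 *Hox* genes, in 24 windows. Below, 3 of these are printed, chosen for the level or the place of their locus. *Hoxa5* belongs to the most abundant locus (chr6:52204538-52204837, minus strand), *Hoxb8* to the most posterior locus above 1 FPKM (chr11:96281655-96281954, plus strand), and *Hoxa9* to the first gene past that border in cluster a (chr6:52227321-52227620, minus strand). Capitals mark a hexamer bound by nuclear receptors, which include the retinoic acid receptors (AGGTCA), in *Hoxa5*, a Pbx-Hox motif (TGATNNAT, here on the reverse strand) in *Hoxb8* and the core motif of TEAD (GGAATG), the DNA-binding partner of YAP, in *Hoxa9*.
Hoxa5: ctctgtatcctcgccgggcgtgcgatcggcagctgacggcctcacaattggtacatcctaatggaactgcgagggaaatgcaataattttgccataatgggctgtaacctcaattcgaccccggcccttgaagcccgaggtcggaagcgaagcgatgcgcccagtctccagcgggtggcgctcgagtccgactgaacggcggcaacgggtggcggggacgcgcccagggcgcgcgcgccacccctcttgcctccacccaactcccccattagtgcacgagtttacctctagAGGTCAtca
Hoxb8: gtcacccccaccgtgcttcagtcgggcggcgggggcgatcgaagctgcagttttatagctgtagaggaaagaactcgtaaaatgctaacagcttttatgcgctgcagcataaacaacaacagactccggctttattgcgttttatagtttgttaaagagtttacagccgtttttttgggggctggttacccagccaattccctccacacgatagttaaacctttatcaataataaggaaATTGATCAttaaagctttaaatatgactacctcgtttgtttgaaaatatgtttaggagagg
Hoxa9: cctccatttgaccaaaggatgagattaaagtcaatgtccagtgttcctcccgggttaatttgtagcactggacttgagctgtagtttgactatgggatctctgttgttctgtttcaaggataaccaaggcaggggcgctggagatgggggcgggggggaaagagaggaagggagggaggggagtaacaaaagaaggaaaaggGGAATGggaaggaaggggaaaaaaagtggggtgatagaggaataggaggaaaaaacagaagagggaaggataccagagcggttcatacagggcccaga
Each motif was searched on both strands. The nuclear receptor hexamer lay at bases 292 to 297 of the *Hoxa5* window, the Pbx-Hox motif at 240 to 247 of *Hoxb8* and the TEAD motif at 203 to 208 of *Hoxa9*. AGGTCA was held by 7 of the 24 *Hox* windows (of *Hoxa5*, *Hoxb4*, *Hoxc4*, *Hoxd3*, *Hoxd4*, *Hoxd8* and *Hoxd10*) and by 16.3% of the 32851 windows of all genes. TGATNNAT was held by 4 windows (of *Hoxa2*, *Hoxb1*, *Hoxb8* and *Hoxd11*) against 8.85% of all windows. GGAATG was held by the windows of *Hoxa9* and *Hoxd10*, both under 1 FPKM, against 14.7% of all windows. Genes without a window were not searched. Among those averaging at least 1 FPKM were *Hoxa4*, *Hoxb2*, *Hoxb3*, *Hoxb5*, *Hoxb6*, *Hoxb7* and *Hoxc5*. Among the lower ones were *Hoxb9*, *Hoxb13* and the genes of cluster c from *Hoxc6* on. The *Hox* windows were rich in CpG dinucleotides, with a median of 14.5 per window against 7 over all windows. The median was 13.5 in the 8 windows of *Hox* loci averaging at least 1 FPKM and 17.5 in the 16 windows of the lower ones. A match to a motif describes the sequence and does not show a binding site.

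*Hox* genes of clusters a and b made up nearly all *Hox* RNA in both genotypes. A mean over the genotypes of at least 1 FPKM was reached by 17 of the 40 loci. They were 6 of 10 loci in cluster a (on chromosome 6), 8 of 11 in cluster b (chr11:96194361-96368253, mm10), 3 of 10 in cluster c (chr15:102921131-103036852) and none of 9 in cluster d (chr2:74668310-74765142). Cluster b held 55.7% of the summed *Hox* FPKM in control lungs and 58.5% in *Yap* mutant lungs. Cluster a held 41.9% and 39.7%. Clusters c and d together were minor, with 1.81% and 0.588% in control and 1.58% and 0.307% in *Yap* mutant lungs. FPKM is a level per transcript length, so loci can be set beside each other on this scale. The highest locus was that of *Hoxa5* and *Hoxa6*, at 106.8 FPKM in controls and 132.0 FPKM in *Yap* mutants, which placed it at rank 719 and rank 553 among all loci. *Hoxb5* followed with 69.6 and 91.7 FPKM, at ranks 1203 and 843. *Hoxb2*, *Hoxb6* and *Hoxb3* came next in control lungs, in that order, and *Hoxb6* passed *Hoxb2* in *Yap* mutant lungs. Which neighbours in this order differ beyond the spread between libraries was not tested.

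**Figure D1:**
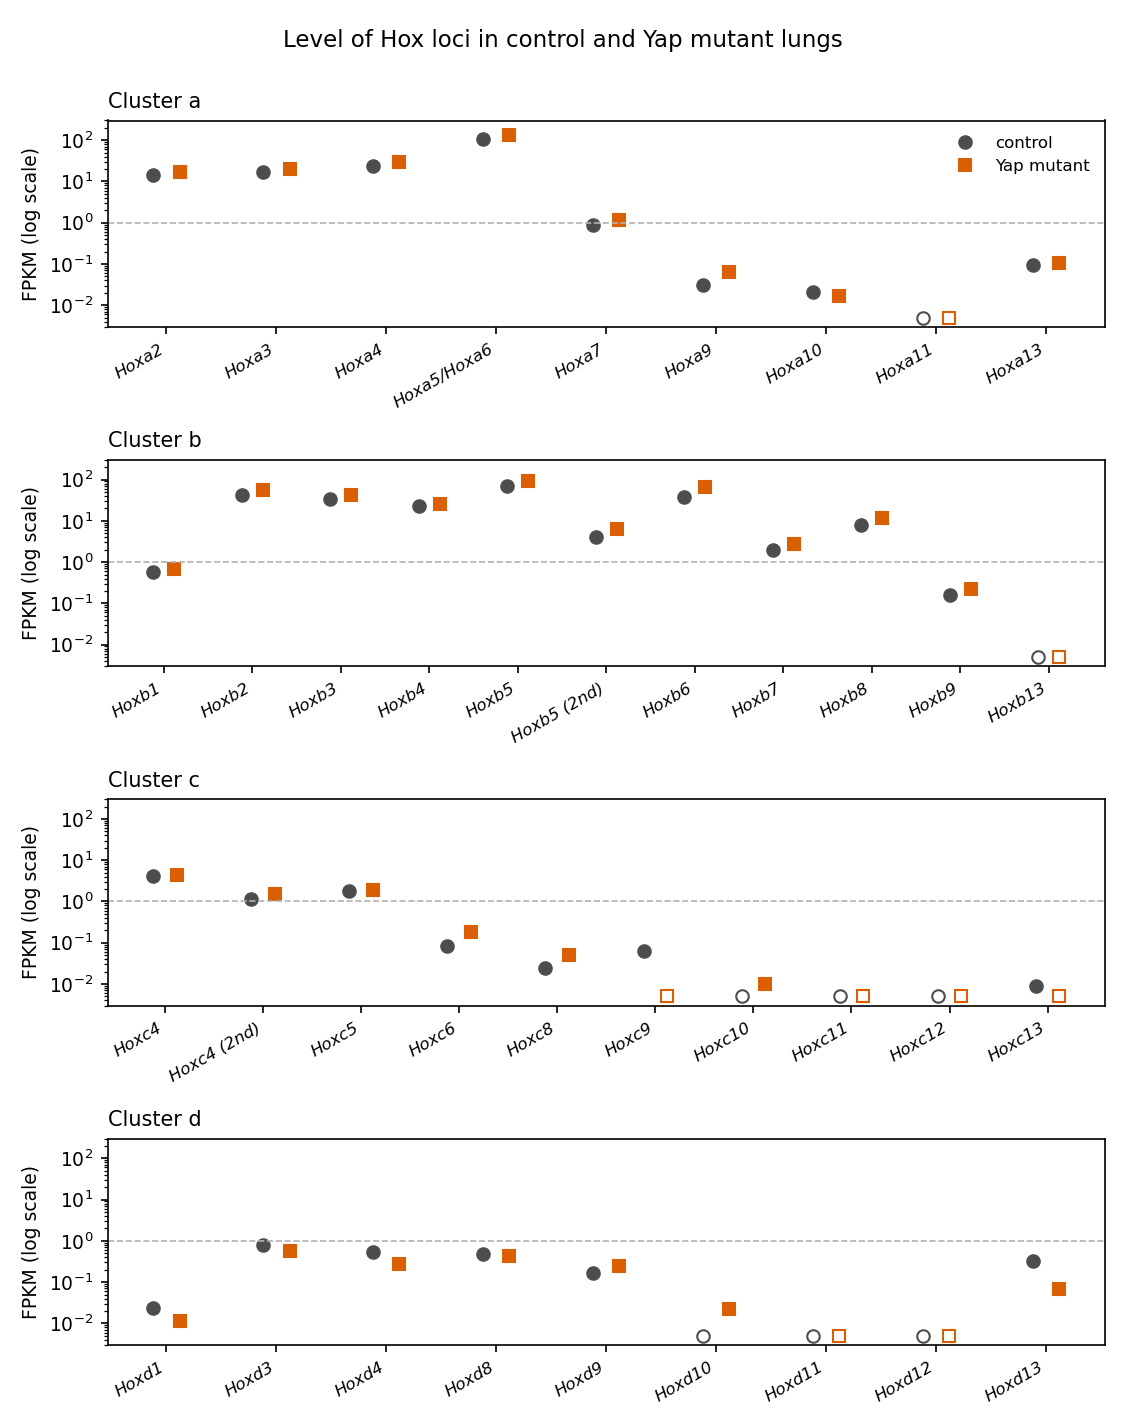
FPKM of 39 of the 40 *Hox* loci (log axis) in control lungs (circles) and *Yap* mutant lungs (squares), by cluster and in the order of paralogue number. Open symbols at the bottom stand for values of 0 and the dashed line marks 1 FPKM. In cluster b, the loci from *Hoxb2* to *Hoxb8* stand above the line. No value from group 9 on and no cluster d value reaches it.

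By paralogue number, the *Hox* RNA of the lung was anterior. Of the loci of groups 1 to 5, 13 of 17 reached a mean of 1 FPKM. Of those of groups 6 to 8, 4 of 7 did. None of the 16 loci of groups 9 to 13 did, and their highest value was 0.325 FPKM. Groups 1 to 5 held 87.4% of the summed *Hox* FPKM in control and 84.1% in *Yap* mutant lungs. Group 5 alone held 45.7% and 44.5%, of which most came from the shared locus of *Hoxa5* and *Hoxa6*, counted here under group 5. Group 6, nearly all of it *Hoxb6*, held 9.56% in control and 12.8% in *Yap* mutant lungs, the largest shift of a group's share toward the mutant. If part of the shared locus is *Hoxa6* RNA, these shares move between groups 5 and 6. Summed over all 40 loci, *Hox* RNA stood at 398.9 FPKM in controls and 520.7 FPKM in *Yap* mutants.

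**Figure D2:**
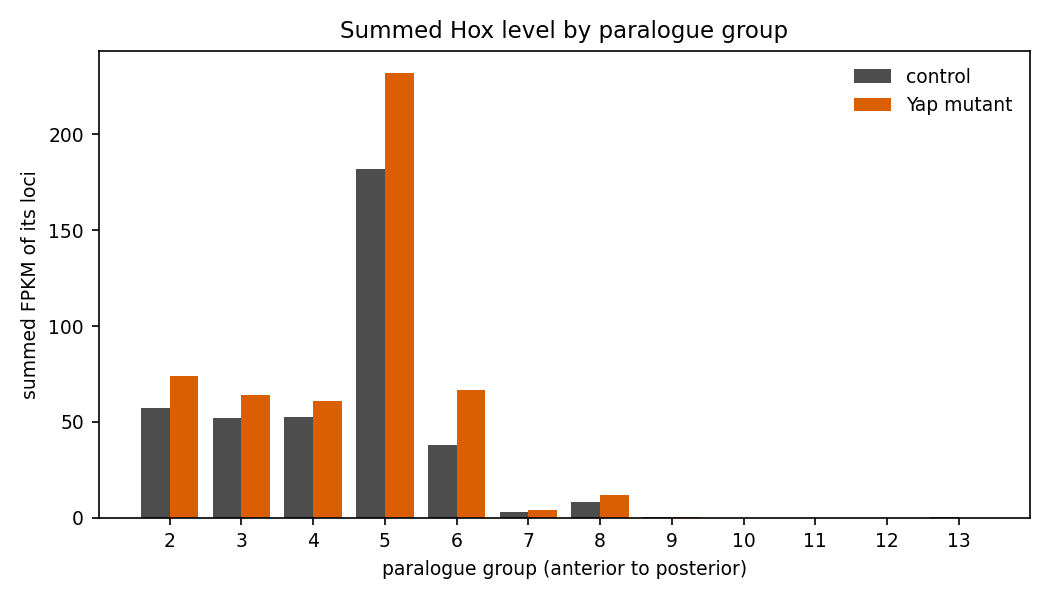
Summed FPKM of the *Hox* loci of paralogue groups 2 to 13 in control and *Yap* mutant lungs. Group 5 is the tallest pair of bars in both genotypes, groups 2 to 4 and 6 follow, and groups 9 to 13 are close to 0.

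All 17 loci averaging at least 1 FPKM were higher in *Yap* mutant than in control lungs, whereas 48.2% of the 12716 loci of the table that passed the same filter were higher. The difference was taken as a log2 fold change, *Yap* mutant over control, after 0.1 FPKM was added to each value. Its median over the 17 *Hox* loci was 0.38, with a range of 0.11 to 0.80, against a median of -0.01 over all 12716 loci. The differences were small. Past 1.5-fold, 2 of the 17 were higher, *Hoxb6* and the second *Hoxb5* locus, against 4.44% of all loci, and 0 were lower, against 3.3% of all loci. Past 1.2-fold, a limit chosen after the values were seen, 13 of the 17 were higher, against 12.2% of all loci, and 0 were lower, against 8.78%. Low loci scatter more than abundant ones in this table. Among loci averaging at least 5 FPKM, 10 of 12 *Hox* loci were higher by 1.2-fold, against 7.16% of 9544 loci. Genes of 1 cluster lie side by side and share regulation, so the 17 loci are not separate observations. Whether any single difference exceeds the spread between lungs was not tested here.

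**Figure D3:**
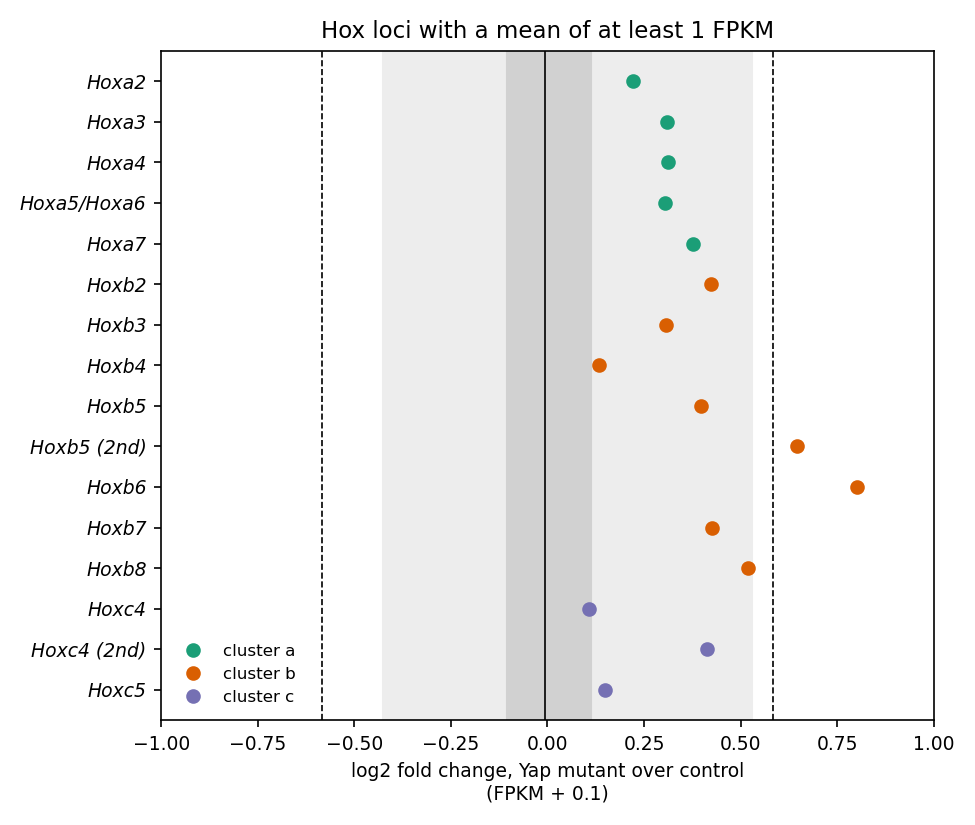
Log2 fold change (*Yap* mutant over control, FPKM + 0.1) of 16 of the 17 *Hox* loci averaging at least 1 FPKM, coloured by cluster. The dark and light bands hold the middle 50% and 90% of all 12716 loci, the solid line is their median and dashed lines mark 1.5-fold. All *Hox* points lie right of the solid line, 2 of them past the dashed line.

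**Figure D4:**
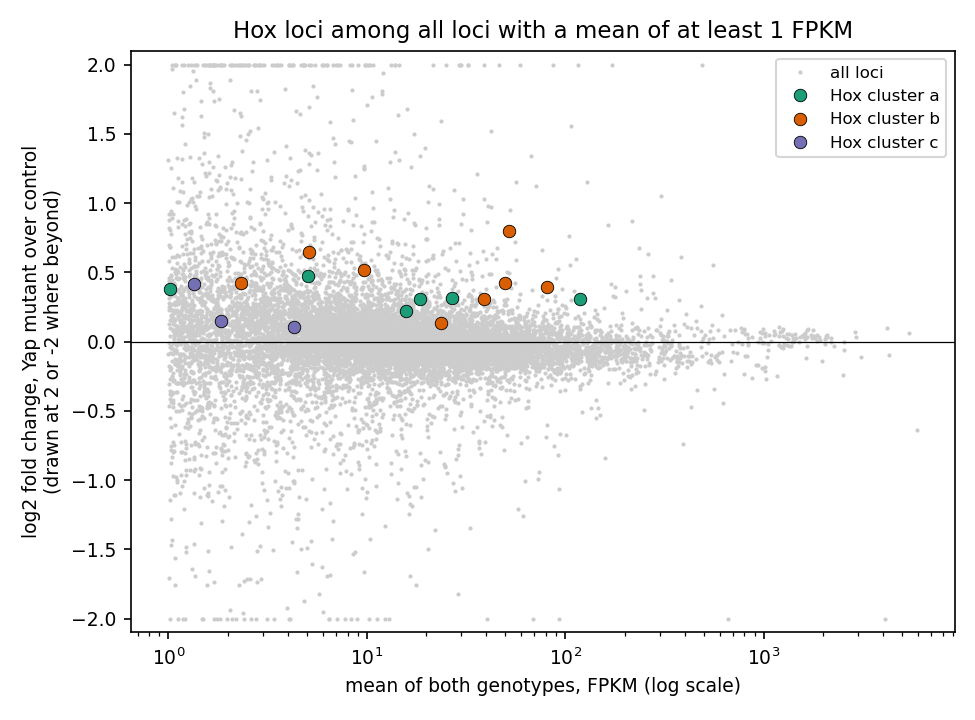
Log2 fold change (*Yap* mutant over control) against the mean of both genotypes (FPKM, log axis) for all 12716 loci averaging at least 1 FPKM (grey) and the *Hox* loci among them (coloured by cluster). The *Hox* loci lie above 0 over their whole range of levels, and grey points spread less at higher levels.

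In groups 2 and 3, which pattern the hindbrain and the branchial arches, 4 loci had a mean of at least 1 FPKM. *Hoxa2*, which sets the identity of the second branchial arch, was at 14.6 FPKM in controls and 17.0 FPKM in *Yap* mutants (log2 fold change 0.22). *Hoxb2* was at 42.6 and 57.2 FPKM (0.42). *Hoxb2* thus stood well above its paralogue *Hoxa2* in both genotypes. *Hoxa3*, needed for the thymus and parathyroid glands, was at 16.5 and 20.5 FPKM (0.31). *Hoxb3* was at 34.7 and 43.0 FPKM (0.31). The log2 fold changes of these paralogues of group 3 were alike to 2 decimals, although their levels were not. Of group 1, *Hoxb1* had values of 0.564 and 0.691 FPKM, and *Hoxd1* was near 0.

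Groups 4 and 5 pattern the neck and upper thorax, the level of the lung buds. The most abundant loci were in group 5, whereas those of group 4 lay below *Hoxb2*, *Hoxb3* and *Hoxb6*. *Hoxa4* was at 24.0 FPKM in controls and 29.8 FPKM in *Yap* mutants (log2 fold change 0.31). *Hoxb4* was at 22.7 and 24.9 FPKM (0.13), one of the smallest differences of the 17. These paralogues lay close together in control lungs and farther apart in *Yap* mutant lungs. *Hoxc4* was at 4.15 and 4.48 FPKM (0.11) and *Hoxc5* at 1.74 and 1.94 FPKM (0.15). Cluster c thus stood low beside the paralogues of clusters a and b. The shared locus of *Hoxa5* and *Hoxa6*, whose *Hoxa5* promoter is printed above, had a log2 fold change of 0.31. That of *Hoxb5*, known from the mesenchyme around the branching airways, was 0.40. Over groups 1 to 5, the median log2 fold change was 0.31 (13 loci).

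Groups 6 to 8, which pattern the thorax, had a median log2 fold change of 0.47 over 4 loci, all 4 past 1.2-fold. With a pseudocount of 1 FPKM, 3 of the 4 were, since *Hoxa7* then had a log2 fold change of 0.21. *Hoxb6* was at 38.1 FPKM in controls and 66.4 FPKM in *Yap* mutants, with a log2 fold change of 0.80 that was higher than that of 97.1% of all loci tested. It moved from rank 2400 to rank 1230 among all loci. *Hoxb8*, the last gene of cluster b above 1 FPKM, was at 7.93 and 11.4 FPKM (0.52). *Hoxb7*, which lies between them, was far lower than both, at 1.97 and 2.68 FPKM (0.43). *Hoxa7* was at 0.877 FPKM in controls and 1.17 FPKM in *Yap* mutants (0.38). Level and position went with the difference only weakly. Across the 17 loci, Pearson's r with the log2 fold change was 0.09 for the log2 mean FPKM and 0.30 for the paralogue number, as a description of loci that share both pools of libraries. The median log2 fold change was 0.31 in cluster a (6 loci), 0.42 in cluster b (8 loci) and 0.15 in cluster c (3 loci).

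The 23 loci below a mean of 1 FPKM had no value above 0.814 FPKM. Of these, 6 were listed at 0 in both genotypes (*Hoxa11*, *Hoxb13*, *Hoxc11*, *Hoxc12*, *Hoxd11* and *Hoxd12*), 4 at 0 in one genotype (*Hoxc9*, *Hoxc10*, *Hoxc13* and *Hoxd10*) and 13 were above 0 in both. Most are posterior genes with roles in the lumbar and tail regions, the limbs or the genitourinary tract. Cluster d was low from end to end. *Hoxd3*, its highest locus, was at 0.814 FPKM in controls and 0.556 FPKM in *Yap* mutants. *Hoxd4* was at 0.530 and 0.279 FPKM. *Hoxd8* was at 0.491 and 0.419 FPKM. Whereas the abundant *Hox* loci were all higher in *Yap* mutant lungs, of the 9 cluster d loci 5 were lower, 2 were higher (*Hoxd9* and *Hoxd10*) and 2 were at 0 in both. *Hoxd13*, which acts in digits and the hindgut, was at 0.325 FPKM in controls and 0.0690 FPKM in *Yap* mutants, the highest value of groups 9 to 13. The cluster summed to 2.35 FPKM in controls and 1.60 FPKM in *Yap* mutants. Of the 14 low loci of clusters a, b and c, 7 were higher, 3 lower and 4 at 0 in both. Among all 6660 loci of the table above 0 with a mean under 1 FPKM, 56.8% were higher. Values this low rest on few fragments and their precision is unknown, so no direction is read from them.

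Several *Hox* loci overlap each other or RNAs read from the opposite strand. In the table, 11 *Hox* loci carry the coordinates of another locus as well. *Hoxa3*, *Hoxa4* and the locus of *Hoxa5* and *Hoxa6* share chr6:52169062-52213597 with *2700086A05Rik*, an older name of the antisense RNA *Hoxaas3*. This RNA was at 4.43 FPKM in controls and 8.21 FPKM in *Yap* mutants, a log2 fold change of 0.88. It was the only one of the 9 cluster RNAs with a locus, of 15 listed, to reach a mean of 1 FPKM, and it was past 1.5-fold. *Mira*, a locus between *Hoxa6* and *Hoxa7* that was named after its values were seen, was at 4.48 and 6.66 FPKM (0.56). In cluster b, *Hoxb6* and both *Hoxb5* loci share chr11:96290375-96306985, where the GENCODE annotation also places the antisense gene *Hoxb5os*. The second *Hoxb5* locus was at 3.97 FPKM in controls and 6.26 FPKM in *Yap* mutants (0.65). The second *Hoxc4* locus was at 1.14 and 1.55 FPKM (0.41). The libraries kept the strand, but the table gives no strand and it is not stated whether counting used it, so sense and antisense RNA of these loci cannot be told apart. The microRNA genes of the clusters (*Mir10a*, *Mir10b*, *Mir196a-1*, *Mir196a-2* and *Mir196b*) and *Hotair* were listed at 0 in both genotypes. Whether these libraries capture microRNAs is not stated, so a 0 does not show that a microRNA is absent.

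The partners and activators of *Hox* genes had medians close to the -0.01 of all loci, whereas the median of the polycomb list was lower. Of all 12716 loci, 6133 were higher and 6583 lower. Few members past 1.5-fold can be looked for in lists of this size, as 4.44% of all loci were higher and 3.3% lower by that much. TALE proteins bind DNA together with Hox proteins, and 8 of their 9 genes had a mean of at least 1 FPKM. *Meis1*, a cofactor gene, was at 74.5 FPKM in controls and 70.5 FPKM in *Yap* mutants. None of the 8 was past 1.5-fold, with a median log2 fold change of -0.01 and 4 genes on each side of 0. Polycomb proteins keep *Hox* genes silent outside their domains. *Ezh2*, the methyltransferase of the complex that marks H3K27, was at 71.0 and 59.4 FPKM, the highest of the polycomb list. Of 15 polycomb genes that passed the filter, 12 were lower, 3 were higher and none was past 1.5-fold (median -0.10). The 25th percentile of the log2 fold changes of all loci was -0.11. Trithorax proteins, H3K27 demethylases, Cdx factors and retinoic acid receptors promote *Hox* expression. *Men1*, a trithorax partner, was the highest of this list at 39.7 and 36.0 FPKM. Of 9 activators that passed the filter, 3 were higher and 6 lower, again none past 1.5-fold (median -0.04). *Gmnn*, an antagonist of Hox function, was at 47.8 and 43.0 FPKM. The difference between these lists and the *Hox* loci was not tested.

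Genes next to the clusters were measured to see whether the difference went past the cluster borders. Beside cluster a, *Skap2*, an adaptor protein gene, was at 37.6 FPKM in controls and 44.9 FPKM in *Yap* mutants (log2 fold change 0.26), 143 kb away. *Hibadh*, a gene of valine breakdown, was at 38.7 and 43.9 FPKM (0.18), 285 kb away on the other side. All 4 listed neighbours of cluster a above 1 FPKM were higher, with a median of 0.22. Beside cluster b, *Atp5g1*, a subunit of ATP synthase, was at 179.4 and 182.8 FPKM (0.03). *Snx11*, a sorting nexin, was at 9.78 and 8.45 FPKM (-0.21). *Cbx1*, farther out, was at 151.5 and 134.2 FPKM (-0.17). The 2 listed neighbours of cluster b above 1 FPKM, *Snx11* and *Cbx1*, were lower, with a median of -0.19. *Atp5g1* was the nearest locus averaging at least 1 FPKM on its side but not on that list. The listed *Ttll6* and *Calcoco2* lie closer to the cluster but did not reach that level. All 8 *Hoxb* loci that passed the filter lay above 0. *Calcoco1* (16.4 and 19.1 FPKM, 0.22) and *Smug1* (7.48 and 7.99 FPKM, 0.09) flank cluster c. *Lnp* (6.97 and 6.68 FPKM, -0.06) and *Mtx2* (62.0 and 55.4 FPKM, -0.16) flank cluster d. None of these neighbours was past 1.5-fold.

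The markers of the cell types in which the lung's *Hox* RNA can lie moved unequally between the genotypes. The 17 loci of the mesenchyme list had a median log2 fold change of 0.06, with 11 higher and 6 lower. With that median subtracted, an alternative chosen after the values were seen, all 17 *Hox* loci stayed above 0 (0.05 to 0.74) and 2 stayed past 1.5-fold. Single mesenchymal genes differed by more than any of the 17 *Hox* loci. *Foxf1*, a target of hedgehog signalling, was at 83.5 FPKM in controls and 41.6 FPKM in *Yap* mutants, and *Fgf10*, which drives bud outgrowth, was at 10.4 and 26.6 FPKM. The epithelium list was lower, with a median of -0.61 and 10 of 12 genes lower. The 3 mesothelium genes that passed the filter had a median of 0.31 and the 5 endothelium genes one of 0.18, with all 8 higher. The 8 nerve and glia genes had a median of -0.57, with 7 lower. Heart muscle markers were farther apart than these lists, with a median of 2.96, all 9 past 1.5-fold and none at 0 in either genotype. The part of each of these cell types in the *Hox* difference was not tested.

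**Figure D5:**
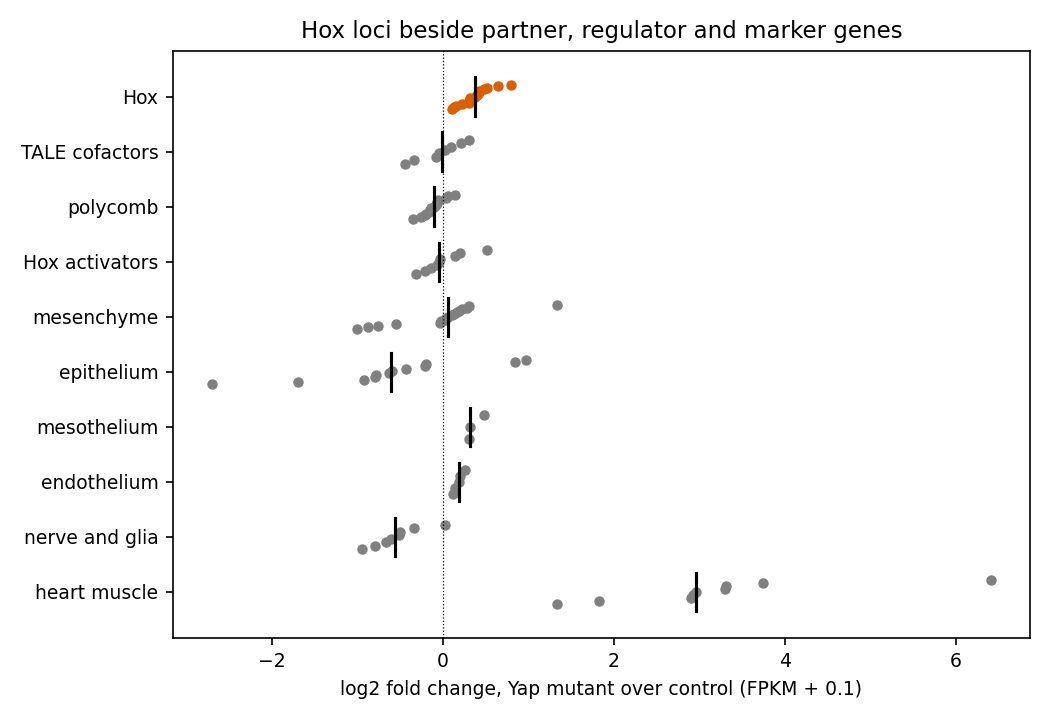
Log2 fold change (*Yap* mutant over control, FPKM + 0.1) of the *Hox* loci (orange) and of the members of 9 gene lists (grey) averaging at least 1 FPKM, with the median of each as a vertical bar. The *Hox* points lie above 0 in a narrow range, partner and regulator genes lie around 0, and the heart muscle list stands far to the right.

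Of the other tissues that a dissected lung can carry along, liver markers had a median log2 fold change of 1.74 (4 genes, 3 past 1.5-fold higher) and red blood cell loci one of 0.19 (5 loci, all higher). Of 5 markers of limb and posterior trunk, where posterior *Hox* genes are used, 2 passed the filter, with a median of 0.82. *Tbx18*, also a gene of the epicardium, was at 2.65 FPKM in controls and 6.36 FPKM in *Yap* mutants. *Hand2* was at 3.43 and 4.55 FPKM. The others were under the filter, with *Pitx1*, a hindlimb gene, at 0.276 and 1.56 FPKM. *T* was at 0.283 and 0.430 FPKM and *Tbx15* at 0.0353 and 0.0306 FPKM. The *Hox* genes of groups 9 to 13 summed to 0.863 FPKM in controls and 0.743 FPKM in *Yap* mutants beside them. The 2 cartilage genes that passed the filter were lower (median -0.36). Of the 2 genes of the skeletal muscle list that passed it, *Actn2* was higher, at 1.11 and 11.4 FPKM, and *Myog* lower, at 1.51 and 0.826 FPKM. The log2 fold change of *Actn2* was 3.26, beside a median of 2.96 for the heart muscle list. Which muscle its RNA came from was not tested. *Myod1*, *Myf5* and *Pax7* were under 1 FPKM in both genotypes, with the lower value of each in *Yap* mutants.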

How the data were processed

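RNA-Seq of whole lungs at 12.5 *dpc* covered 3 control and 3 *Yap* mutant libraries, made as stranded paired-end libraries and analysed by the authors on the Maverix platform. The submitters' processing notes name TopHat, Cuffdiff and mm10, without versions. There are 2 deposited tables, for all loci and for a selection of them. The values in both are in FPKM, pooled by the authors to 1 value per genotype. The unit was inferred from the Cuffdiff layout, since the tables do not name it. The tables also hold the authors' own fold changes and p-values, which were not used here. As no values of single libraries were used, there is no replicate error and no test, and the depth is unknown. Columns of other samples numbered 0.

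Log2 fold changes were computed as log2 of (*Yap* mutant + 0.1) over (control + 0.1) FPKM, which understates the change of low loci. Counts and medians cover loci averaging at least 1 FPKM, of which 12716 passed, and a locus counted as called past 1.5-fold. Every *Hox* locus was counted, and 1 of them and 1 partner gene are not reported here by their own values. Of the lists of partners, regulators, cluster RNAs and neighbours, members past 1.5-fold, the highest member and the nearest neighbours are named, and other members where stated or where they illustrate a list. The members and the lists were chosen with earlier results of these data known. Starts of loci in the tables count from 0 and are printed with 1 added. Gene positions came from GENCODE M21 (GRCm38) and promoters from RefSeq. Python 3.11.15, numpy 2.4.6, pandas 2.3.3 and matplotlib 3.10.9 were used.

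Alternatives were pseudocounts of 0.01 and 1 FPKM, no filter, a mean of at least 5 FPKM, a fold of 2, centring on the median of all loci, loci with 1 symbol and the values of the second table. Those chosen after seeing the values were a fold of 1.2, any difference, centring on the mesenchyme list, and the 1.2-fold count with a pseudocount of 1 FPKM and at an average of at least 5 FPKM.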

Additional observations from a re-analysis of the deposited data

How the results depend on the processing

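No paired analysis was possible because the tables hold 1 value per genotype and no value per library, and for the same reason leaving out each library was not run. The number of *Hox* loci higher past 1.5-fold, 2, was 1 with a pseudocount of 1 FPKM and 3 with no filter on low values. It was 0 at a fold of 2, 13 at a fold of 1.2 and 17 for any difference. The number lower past 1.5-fold, 0 among loci averaging at least 1 FPKM, was 3 with no filter on low values, where the median log2 fold change of the *Hox* loci was 0.24 in place of 0.38. These added loci all lie below 1 FPKM, and 6 of them are at 0 in both genotypes. The log2 fold change stayed above 0 at all 17 loci with pseudocounts of 0.01 and 1 FPKM, and after centring on all loci or on the mesenchyme list. It also did at the 12 and 16 loci left averaging at least 5 FPKM and with 1 symbol. None of these settings could turn a sign. A pseudocount added to both values keeps their order, both subtracted medians lie below the smallest *Hox* change, and the filters only drop loci. The second table holds 7 of the *Hox* loci, with identical values, and so adds nothing to these. With a pseudocount of 1 FPKM, 11 loci were past 1.2-fold, and the log2 fold change was 0.21 at *Hoxa7*, 0.31 at *Hoxb7* and 0.25 at the second *Hoxc4* locus. With an average of at least 5 FPKM, only *Hoxb6* and *Hoxb8* were left of groups 6 to 8, and their median was 0.66 in place of 0.47. Without the shared locus of *Hoxa5* and *Hoxa6*, cluster a held 20.6% and cluster b 76.1% of the summed *Hox* FPKM in control lungs, and 19.2% and 78.3% in *Yap* mutant lungs. The depth is unknown, so the precision of no value can be given.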

Other observations

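The ParaHox genes, relatives of the *Hox* genes that pattern the gut and pancreas, were low or listed at 0. *Pdx1*, a gene of pancreas and duodenum, was at 0.0266 FPKM in controls and 0.809 FPKM in *Yap* mutants. *Cdx2*, a gene of the intestine and tail bud, was listed at 0 in control lungs and at 0.410 FPKM in *Yap* mutant lungs. *Gsx1* and *Gsx2* were at 0 in both. *Evx1* and *Evx2*, homeobox genes at the posterior ends of clusters a and d, were at 0.240 and 0.342 FPKM and at 0.234 and 0.0702 FPKM.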
